A study of Mus musculus with 4 samples.

Results

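Lncenc1, a long noncoding RNA of embryonic stem cells (ESCs), and 9 genes of glycolytic enzymes were examined in WT and G3 *Terc*-/- mouse ESCs. The 10 genes, of 24116 in the deposited gene counts, were chosen by their names from a pathway and with results of this comparison in view, so that Lncenc1 and Hk2 were selected on the values described here. Their values are therefore given as a description without a test. All 10 genes passed the filter on low counts, among 14896 genes tested in all.

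The ESCs had a C57BL/6 background and were grown on feeder cells in medium with serum and LIF. The WT line carried *Terc*, the gene of the telomerase RNA component. The G3 *Terc*-/- line, derived from an intercross of second-generation knockout mice, lacked it, and poly(A) RNA of 2 biological replicates of each line was sequenced. Each genotype was represented by 1 line, so that genotype and line cannot be told apart. The depth was 22057607 and 22520017 gene counts for WT, against 21898081 and 18047995 for G3 *Terc*-/- ESCs. *Terc* itself gave 7 and 2 counts in WT and 0 in each G3 *Terc*-/- library, and a count of 0 leaves room for up to 3. An exact permutation test (two-sided) of 2 libraries against 2 cannot give a p below 0.333.

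Glycolysis converts glucose to pyruvate, and lactate dehydrogenase converts pyruvate to lactate. Hexokinase traps glucose as glucose 6-phosphate, the next steps split the sugar into triose phosphates, and the later enzymes recover ATP. Mouse ESCs use this route. Lncenc1 is known as an abundant nuclear RNA of naive ESCs. It has been tied to the transcription of glycolysis genes together with the RNA-binding proteins PTBP1 and HNRNPK.

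Lncenc1 and Hk2 were lower in G3 *Terc*-/- ESCs by more than 2-fold, and they were the only 2 of the 10 genes to differ by that much. The 6 enzyme genes outside chromosome 6 were lower by smaller amounts, and Tpi1 and Gapdh, both on chromosome 6, were higher. In 8 of the 10 genes both G3 *Terc*-/- libraries lay below both WT libraries, and in the other 2 genes both lay above, as in 34.9% and 35.5% of all genes tested. Among all genes tested, 21.8% were lower and 21.7% were higher at an adjusted p under 0.05. At a fold change over 2 and a *P* value under 0.05, the cutoffs of the study, 3.13% were lower and 4.73% higher. Here these cutoffs were applied to values from edgeR, whereas the study used Cufflinks. Because the genes were selected with this contrast known, nothing is read from these shares.

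Lncenc1 (gene identifier 100039691, chromosome 13 of GRCm38 from 97434970 to 97497664, annotated as a lncRNA) gave 5269 and 5367 counts in WT against 1903 and 1409 in the G3 *Terc*-/- libraries. Scaled to library size, this was 242 ± 0.547 CPM (counts scaled to a common library size; SD, n = 2) in WT ESCs against 81.5 ± 6.07 CPM (SD, n = 2) in G3 *Terc*-/- ESCs. Its level in the mutant line was 33.7% of WT, a log2 fold change of -1.57 with a standard error (SE) of 0.06. The groups were far apart and the WT replicates nearly equal, and 138 of the tested genes had a lower log2 fold change. In bulk RNA, fewer cells with a transcript and less of it per cell cannot be told apart.

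Hk2 (gene identifier 15277, chromosome 6 from 82725025 to 82774454) encodes hexokinase 2, an enzyme of the first step that also binds mitochondria. It gave 5993 and 6043 counts in WT against 2217 and 1740 in the G3 *Terc*-/- libraries, or 273 ± 1.34 and 97.7 ± 3.26 CPM (SD, n = 2 each). The mutant line held 35.7% of the WT level, a log2 fold change of -1.48 with an SE of 0.05, and 164 tested genes were lower still. Hk1, also a hexokinase gene, gave 1373 and 1394 counts in WT against 1208 and 909 in the G3 *Terc*-/- libraries and fell by 0.27 on the log2 scale (SE 0.07, adjusted p = 0.00131, Benjamini-Hochberg, from the quasi-likelihood test of edgeR).

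**Figure D1:**
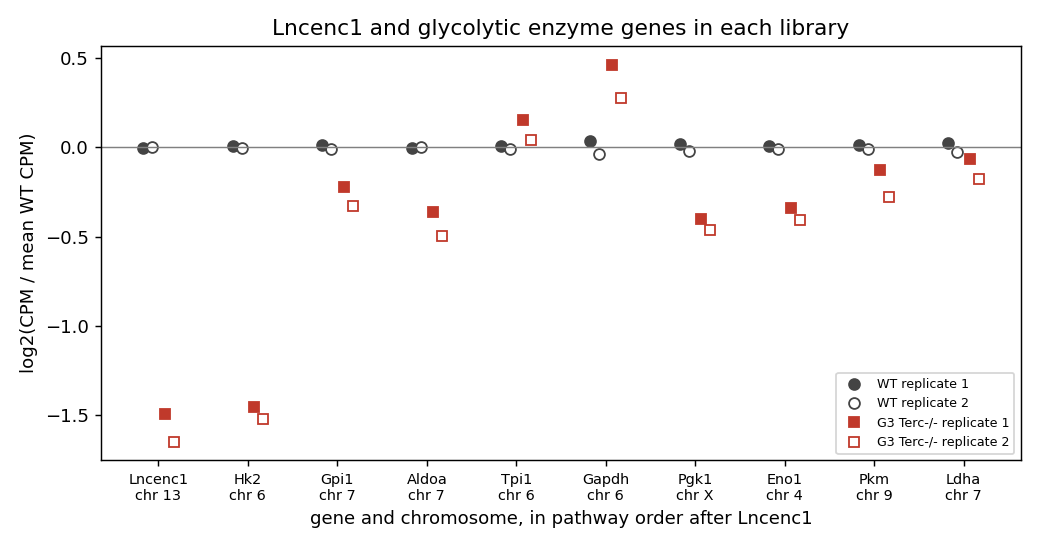
Level of the 10 genes in each library as the log2 ratio of its CPM to the mean CPM of the 2 WT libraries, with circles for WT, squares for G3 *Terc*-/- ESCs and open symbols for replicate 2. Lncenc1 and Hk2 lie near -1.5, Tpi1 and Gapdh above 0 and the other 6 genes between 0 and -0.50.

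Gpi1, which turns glucose 6-phosphate into fructose 6-phosphate, gave 15281 and 15271 counts in WT against 13224 and 10098 in the G3 *Terc*-/- libraries. Its log2 fold change was -0.27 (SE 0.05). Aldoa, the aldolase that cleaves fructose 1,6-bisphosphate, gave 33615 and 34199 counts in WT against 26545 and 19924 in the G3 *Terc*-/- libraries, and its log2 fold change was -0.43 (SE 0.05). For both genes the mutant libraries lay below the WT libraries after scaling, and the gap between the mutant replicates was wider than that between the WT replicates.

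Tpi1, which interconverts the triose phosphates, gave 9634 and 9642 counts in WT against 10821 and 8216 in the G3 *Terc*-/- libraries. Its log2 fold change of 0.10 (SE 0.05) was the smallest in size, and it came to 0.04 without G3 *Terc*-/- replicate 1 and to 0.16 without G3 *Terc*-/- replicate 2. Gapdh, the dehydrogenase of the next step, gave 82327 and 79280 counts in WT against 112199 and 81163 in the G3 *Terc*-/- libraries. Scaled, this was 3673 ± 137 CPM (SD, n = 2) in WT ESCs against 4754 ± 432 CPM (SD, n = 2) in G3 *Terc*-/- ESCs, and the log2 fold change was 0.37 (SE 0.05). Gapdh is often used as a reference gene, and here it was 1.29-fold higher in the mutant line.

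Pgk1, phosphoglycerate kinase on the X chromosome, gave 16461 and 16255 counts in WT against 12473 and 9863 in the G3 *Terc*-/- libraries, with a log2 fold change of -0.43 (SE 0.05). Eno1, the main enolase gene, gave 55621 and 55686 counts in WT against 44280 and 34758 in the G3 *Terc*-/- libraries, with a log2 fold change of -0.37 (SE 0.05). Both genes were lower in each mutant library than in either WT library, with replicates close together.

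Pkm, pyruvate kinase, gave 85754 and 85661 counts in WT against 79220 and 58628 in the G3 *Terc*-/- libraries. Its log2 fold change was -0.20 (SE 0.05), or -0.12 without G3 *Terc*-/- replicate 2. Ldha, the main lactate dehydrogenase gene, gave 25233 and 24709 counts in WT against 24041 and 18281 in the G3 *Terc*-/- libraries, with a log2 fold change of -0.12 (SE 0.05) that came to -0.06 without G3 *Terc*-/- replicate 2. All 10 genes had a lower scaled level in G3 *Terc*-/- replicate 2 than in replicate 1, and the part of this difference between libraries in the values of Tpi1, Pkm and Ldha was not tested.

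Levels between genes were compared per kilobase of merged exons (RPKM). In WT ESCs Gapdh had 2457 ± 92.0 RPKM (SD, n = 2), Pkm 1499 ± 17.3, Eno1 993 ± 9.88, Aldoa 845 ± 1.19, Ldha 599 ± 15.3 and Pgk1 407 ± 8.01 RPKM. Tpi1 and Gpi1 followed with 248 ± 2.53 and 241 ± 2.70 RPKM, Lncenc1 with 87.4 ± 0.198 and Hk2 with 48.7 ± 0.238 RPKM (SD, n = 2 each). The order was the same in G3 *Terc*-/- ESCs, from Gapdh at 3180 ± 289 RPKM to Lncenc1 at 29.5 ± 2.20 and Hk2 at 17.4 ± 0.580 RPKM (SD, n = 2 each), and neighbours in either order differed by more than the sum of their SDs. The 9 enzyme genes together took 1.496% and 1.451% of all counts in WT against 1.484% and 1.345% in G3 *Terc*-/- libraries, ranges that overlapped. Without Tpi1 and Gapdh the shares were 1.079% and 1.056% in WT against 0.922% and 0.849% in G3 *Terc*-/- libraries, ranges that did not overlap. Leaving out the 2 genes that were higher leaves only genes that were lower, so that nothing is read from this gap. Pkm had the most counts of the 9 in both WT libraries and Gapdh in both G3 *Terc*-/- libraries.

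Some of these genes have near-identical copies elsewhere in the genome, and whether reads that match several copies were counted is not given in the sources used here. Of all 75-base windows of the longest annotated transcript, 80.3% of Gapdh, 67.5% of Pgk1 and 65.4% of Eno1 also occur in a transcript or pseudogene of another name. The share was 19.6% for Pkm, 14.8% for Gpi1, 5.23% for Ldha, 2.48% for Tpi1 and 1.49% for Aldoa, and 0% for both Lncenc1 and Hk2. Eno1b, a copy that shares 64.2% of the windows of Eno1, gave 47358 and 47486 counts in WT against 38422 and 30096 in the G3 *Terc*-/- libraries. The ratio of Eno1b to Eno1 counts was between 0.851 and 0.868 in the 4 libraries. The values of Eno1 and Eno1b are uncertain for this reason, as are those of Gapdh and Pgk1.

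The rest of the pathway was tested in genes that had not entered the list above. These lists too were chosen with earlier results of these data known, so that their counts are not an independent test. Eno1b, counted among the genes that fell, may share reads with Eno1. Among 142 tested genes of 10 lists around glycolysis, 20 rose and 47 fell in the G3 *Terc*-/- line by the quasi-likelihood test of edgeR at an adjusted p under 0.05, and 75 did not pass. These were 14.1% and 33.1% of the genes, beside 21.7% and 21.8% of all genes tested, and their median log2 fold change was -0.07 beside 0.01. At the cutoffs of the study 5 were higher and 5 lower. With DESeq2, and likewise without WT replicate 2, 12 were higher. Of the lists, 13 genes lie on chromosome 6, and without them 16 of 129 were higher and 41 were lower.

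**Figure D2:**
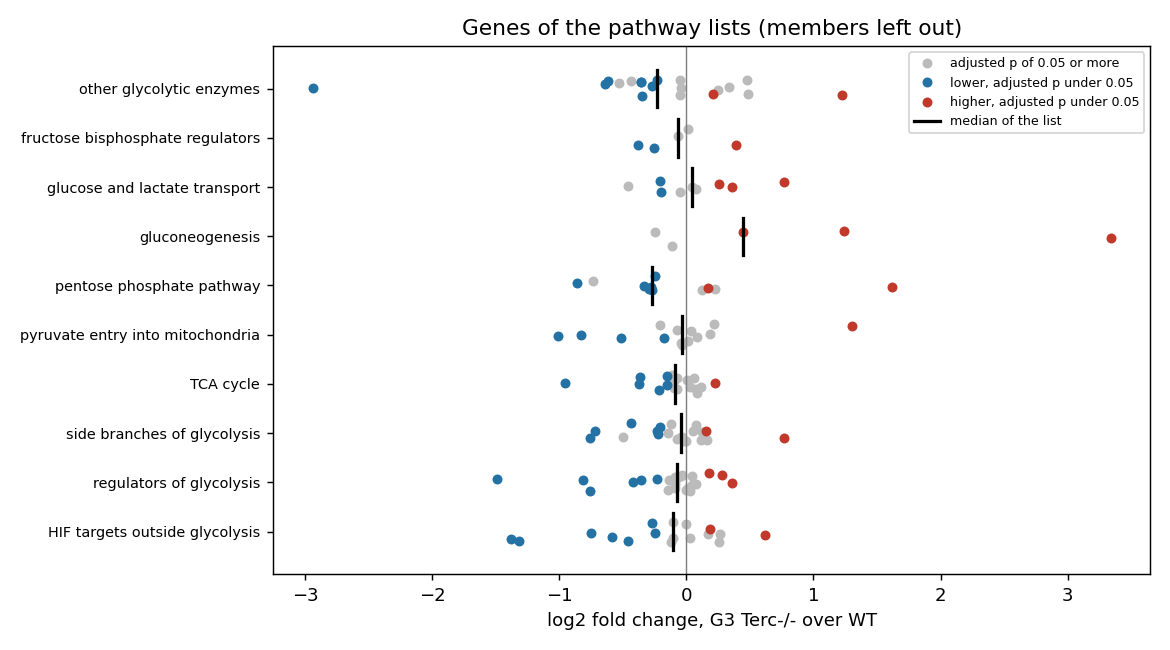
Log2 fold change (G3 *Terc*-/- over WT) of the tested genes of each list, 1 point per gene, with colours for genes that were higher or lower at an adjusted p under 0.05 and a black bar at the median of each list. Blue points outnumber red ones in most lists, and gluconeogenesis has only red ones among its called genes.

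Of the 24 other genes of glycolytic enzymes, 19 were tested, 2 were higher and 8 were lower, with a median log2 fold change of -0.23. Phosphofructokinase, which commits the sugar to glycolysis, is encoded by 3 genes that went different ways. Pfkl gave 6518 and 6607 counts in WT against 6027 and 4320 in the G3 *Terc*-/- libraries and fell by 0.23 on the log2 scale (SE 0.05, adjusted p = 0.000557 from edgeR), or by 0.13 without G3 *Terc*-/- replicate 2. Pfkm fell by 0.36 (SE 0.07, adjusted p = 3.20e-05 from edgeR). Pfkp gave 2508 and 2575 counts in WT against 2969 and 2440 in the G3 *Terc*-/- libraries and rose by 0.21 (SE 0.05, adjusted p = 0.00145 from edgeR). Its share of the summed RPKM of the 3 genes was 20.6% ± 0.0123 in WT ESCs against 26.5% ± 1.83 (SD, n = 2 each) in the G3 *Terc*-/- line, while Pfkl held most of it in both.

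Pgam1, which moves the phosphate of phosphoglycerate, gave 7553 and 7557 counts in WT against 7365 and 6017 in the G3 *Terc*-/- libraries and did not pass the test (log2 fold change -0.05, SE 0.05, adjusted p = 0.396 from edgeR). Adpgk, an ADP-dependent kinase, did not pass either (-0.05, SE 0.06, adjusted p = 0.516 from edgeR). Eno1b fell by 0.35 (SE 0.05, adjusted p = 3.56e-08 from edgeR), with the reservation on shared reads given above. Ldhb, the other subunit of lactate dehydrogenase, gave 3316 and 3157 counts in WT against 2210 and 1625 in the G3 *Terc*-/- libraries and fell by 0.64 (SE 0.06, adjusted p = 3.76e-12 from edgeR). Ldhb supplied 15.8% ± 0.261 (SD, n = 2) of the summed RPKM of Ldha, Ldhb and Ldhc in WT ESCs against 11.6% ± 0.245 (SD, n = 2) in G3 *Terc*-/- ESCs.

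Glucose enters the cell through transporters of the Slc2a family. Of 9 tested genes of glucose and lactate transport 3 were higher and 2 lower. Slc2a3 gave 26153 and 26858 counts in WT against 45275 and 37464 in the G3 *Terc*-/- libraries and rose by 0.77 on the log2 scale (SE 0.05, adjusted p = 7.99e-18 from edgeR). Slc2a1, the other abundant glucose transporter gene, gave 9526 and 9318 counts in WT against 8418 and 6709 in the G3 *Terc*-/- libraries and fell by 0.20 (SE 0.05, adjusted p = 0.000941 from edgeR), a call that was lost without WT replicate 1, which left 1 lower gene. The share of Slc2a3 in the summed RPKM of 6 Slc2a genes was 68.7% ± 0.737 in WT ESCs against 80.7% ± 0.331 (SD, n = 2 each) in the G3 *Terc*-/- line. Bsg, which brings lactate transporters to the cell surface, rose by 0.26 (SE 0.05, adjusted p = 4.57e-05 from edgeR), and Emb, its relative, fell by 0.21 (SE 0.05, adjusted p = 0.000840 from edgeR). Slc2a8 rose by 0.36 and lost its call with DESeq2 and without WT replicate 2.

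Fructose 2,6-bisphosphate activates phosphofructokinase, and its level is set by the Pfkfb enzymes and lowered by Tigar. Of 5 such genes 1 was higher and 2 were lower, or 1 lower with DESeq2 and without any one library but WT replicate 2. Tigar gave 1840 and 1913 counts in WT against 2451 and 2061 in the G3 *Terc*-/- libraries and rose by 0.39 (SE 0.06, adjusted p = 4.21e-07 from edgeR). Pfkfb2 fell by 0.38 and Pfkfb3 by 0.25 on the log2 scale, and both lost their calls in some settings, Pfkfb2 (at -0.26) without G3 *Terc*-/- replicate 2 and Pfkfb3 with DESeq2 and without WT replicate 1 or G3 *Terc*-/- replicate 1.

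Gluconeogenesis runs the route in reverse. Of its 5 tested genes 3 were higher and 0 were lower by edgeR. Among genes averaging 50 counts or more, 1 was higher. Pck2 (-0.11) and G6pc3 (-0.25) did not pass, but G6pc3 was lower (-0.35, adjusted p = 0.0389 from edgeR) without G3 *Terc*-/- replicate 1. Pcx, pyruvate carboxylase, gave 400 and 363 counts in WT against 573 and 387 in the G3 *Terc*-/- libraries and rose by 0.45 (SE 0.10, adjusted p = 0.000275 from edgeR), or by 0.29 without G3 *Terc*-/- replicate 1. The other called genes, Fbp1 and Fbp2, were named after their values were seen and had at most 34 counts in any library. Fbp1 lost its call with DESeq2 and without WT replicate 2 or G3 *Terc*-/- replicate 1. Fbp2 gave 3 and 4 counts in WT against 34 and 33 in the G3 *Terc*-/- libraries and rose by 3.34 (SE 0.49, adjusted p = 3.79e-07 from edgeR). It kept its call with DESeq2 (3.39), and its value ran from 3.16 to 3.54 with single libraries left out. Pck1 and G6pc had 0 counts in all 4 libraries.

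In the pentose phosphate pathway, which draws glucose 6-phosphate away to make NADPH and ribose, 2 of 11 tested genes were higher and 6 were lower, with a median of -0.27. Tkt, transketolase, gave 13205 and 13184 counts in WT against 11258 and 8826 in the G3 *Terc*-/- libraries and fell by 0.27 (SE 0.05, adjusted p = 7.43e-06 from edgeR). Pgd, the dehydrogenase of 6-phosphogluconate, fell by 0.29 (SE 0.05, adjusted p = 8.20e-06 from edgeR). Rpia, ribose phosphate isomerase, fell by 0.86 (SE 0.15, adjusted p = 9.47e-06 from edgeR). Rpe rose by 0.17 and lost its call with DESeq2 and without WT replicate 1, WT replicate 2 or G3 *Terc*-/- replicate 2, with 0.11 in the last of these. Tktl1, the other higher gene, had at most 24 counts in any library and lost its call with DESeq2 and without WT replicate 2 or G3 *Terc*-/- replicate 1. With DESeq2, and likewise without WT replicate 2, 0 genes of this list were higher, and without WT replicate 1 or G3 *Terc*-/- replicate 2 the count was 1.

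The step from pyruvate into mitochondria held 1 higher and 4 lower genes of 14 tested. Mpc1, a subunit of the mitochondrial pyruvate carrier, gave 151 and 164 counts in WT against 375 and 338 in the G3 *Terc*-/- libraries and rose by 1.30 (SE 0.12, adjusted p = 4.79e-12 from edgeR). Pdk1, a kinase that inhibits pyruvate dehydrogenase, gave 5925 and 6179 counts in WT against 3451 and 2808 in the G3 *Terc*-/- libraries and fell by 0.83 (SE 0.05, adjusted p = 1.74e-17 from edgeR). Pdk4, of the same family, fell by 1.01 (SE 0.12, adjusted p = 2.27e-09 from edgeR). Pdhb, a subunit of the pyruvate dehydrogenase that these kinases inhibit, fell by 0.51 (SE 0.05, adjusted p = 5.55e-11 from edgeR). Pdha1, another subunit, fell by 0.18 (SE 0.05, adjusted p = 0.00261 from edgeR), a call that was lost without WT replicate 2. The 4 genes that fell were thus 2 enzyme subunits and 2 of the inhibitors.

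Of 18 genes of the TCA cycle, all tested, 1 was higher (2 without G3 *Terc*-/- replicate 2) and 6 were lower. Suclg1, a subunit of succinyl-CoA ligase, gave 1874 and 2145 counts in WT against 1025 and 881 in the G3 *Terc*-/- libraries and fell by 0.95 (SE 0.07, adjusted p = 2.07e-15 from edgeR). Ogdh fell by 0.37 and Idh3a by 0.36 on the log2 scale, both dehydrogenases of the cycle. Suclg2, a subunit that pairs with Suclg1, rose by 0.22 (SE 0.05, adjusted p = 0.000675 from edgeR).

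Side branches of glycolysis, which lead to glycogen, serine, glycine, hexosamines and glycerol phosphate, held 2 higher and 6 lower genes of 21 tested. Gldc, of the glycine cleavage system, gave 7517 and 8108 counts in WT against 4818 and 3923 in the G3 *Terc*-/- libraries and fell by 0.72 (SE 0.05, adjusted p = 1.22e-15 from edgeR). Gfpt2, of the hexosamine branch, gave 2678 and 2732 counts in WT against 1585 and 1344 in the G3 *Terc*-/- libraries and fell by 0.76 (SE 0.06, adjusted p = 1.97e-14 from edgeR). Pgm1, phosphoglucomutase, fell by 0.44. Gpd1 rose by 0.77 and Pygb by 0.15, and both lost their calls with DESeq2, which left 0 higher genes. Gpd1 also lost it without G3 *Terc*-/- replicate 2, where it was at 0.48, and Pygb with no filter and without WT replicate 1, WT replicate 2 or G3 *Terc*-/- replicate 1, each of which left 1 higher gene.

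Regulators of glycolysis included 3 higher and 6 lower genes of 23 tested. Txnip, a protein that limits glucose uptake, gave 5450 and 5408 counts in WT against 1877 and 1656 in the G3 *Terc*-/- libraries and fell by 1.49 (SE 0.06, adjusted p = 6.97e-25 from edgeR). Myc, a transcription factor that activates glycolysis genes, gave 1016 and 1055 counts in WT against 634 and 494 in the G3 *Terc*-/- libraries and fell by 0.76 (SE 0.08, adjusted p = 2.98e-11 from edgeR). Egln3, a prolyl hydroxylase of the hypoxia-inducible factors (HIF), fell by 0.81 (SE 0.08, adjusted p = 7.20e-11 from edgeR). Esrrb, a receptor of the naive pluripotency network, rose by 0.36 (SE 0.05, adjusted p = 2.81e-08 from edgeR). Prkaa2, a subunit of AMP-activated kinase, rose by 0.28 and Mlxip by 0.18, but both lost their calls with DESeq2 and without either WT replicate, which left 1 higher gene each time. Mlxip also lost its call without G3 *Terc*-/- replicate 1 and with no filter.

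Hypoxia-inducible factors activate many glycolysis genes, so that their targets outside glycolysis were listed too. Of 17 such genes 2 were higher and 7 were lower, with a median of -0.10. Bnip3, a mitochondrial protein of mitophagy, gave 1531 and 1635 counts in WT against 917 and 805 in the G3 *Terc*-/- libraries and fell by 0.75 (SE 0.07, adjusted p = 2.69e-12 from edgeR). Bhlhe40, a transcriptional repressor, gave 1269 and 1285 counts in WT against 497 and 404 in the G3 *Terc*-/- libraries and fell by 1.38 (SE 0.08, adjusted p = 3.36e-19 from edgeR). Kdm3a, a histone demethylase, fell by 0.59 on the log2 scale (SE 0.06, adjusted p = 7.34e-12 from edgeR). Ndrg1 rose by 0.62 (SE 0.10, adjusted p = 8.48e-07 from edgeR) and Bnip3l by 0.19, the latter with no call without WT replicate 2, which left 1 higher gene. Hif1a itself had a log2 fold change of -0.07 (SE 0.06, adjusted p = 0.335 from edgeR), but was lower without G3 *Terc*-/- replicate 2 (-0.17, adjusted p = 0.00554 from edgeR) and at 0.03 without G3 *Terc*-/- replicate 1.

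Chromosome 6 carries Hk2, Tpi1 and Gapdh and 13 genes of the lists, and long stretches of it differed between the lines. The paper describes a deletion of part of chromosome 6 in G3 *Terc*-/- ESCs, among others, from exome sequencing. DNA copy number was not examined here, and its part in the values of chromosome 6 genes was not tested. Over its 691 tested genes the median log2 fold change was 0.07, with 235 higher and 215 lower, or 34.0% and 31.1%. Within 2 Mb of Tpi1 the other 49 tested genes had a median of 0.54, with 34 higher and 0 lower at an adjusted p under 0.05 from edgeR. Within 2 Mb of Gapdh the 52 other genes had a median of 0.52, with 36 higher and 0 lower. Tpi1 itself was below its surroundings by 0.44 and Gapdh by 0.15 on the log2 scale. The part of the position on the chromosome in the values of these genes was not tested.

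Hk2 lies between genes that were lower and genes that were higher. The 38 other tested genes within 2 Mb had a median log2 fold change of 0.21. When split by side, a choice made after seeing the data, the 4 genes before Hk2 had a median of -0.81 and the 34 genes after it a median of 0.26. Pole4, which ends 71982 bases before Hk2, gave 1127 and 1227 counts in WT against 782 and 653 in the G3 *Terc*-/- libraries and fell by 0.59 (SE 0.07, adjusted p = 5.54e-09 from edgeR). Sema4f, which starts 137430 bases after Hk2, gave 110 and 117 counts in WT against 115 and 110 in the G3 *Terc*-/- libraries and did not pass the test (log2 fold change 0.11, SE 0.17, adjusted p = 0.624 from edgeR). Hk2 had the lowest log2 fold change of its window, below that of Gcfc2 at -1.22, so that it lay below the median of either side.

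**Figure D3:**
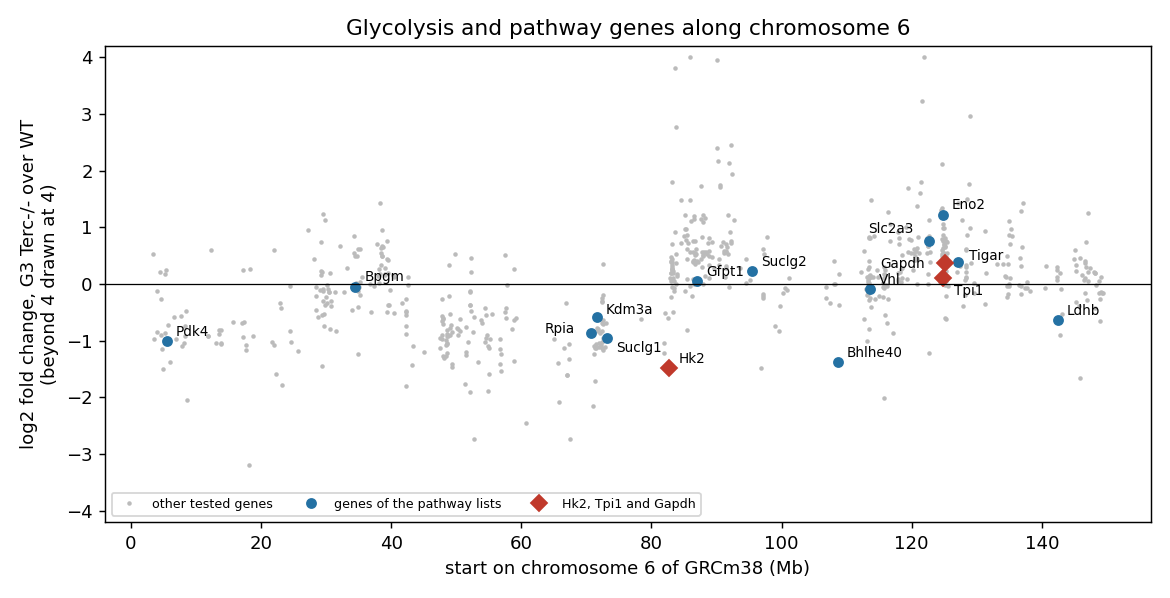
Log2 fold change (G3 *Terc*-/- over WT) of the 691 tested genes of chromosome 6 against their start in Mb, with Hk2, Tpi1 and Gapdh as diamonds and genes of the pathway lists as filled circles. Hk2 sits where values pass from mostly below 0 to mostly above 0, and Tpi1 and Gapdh lie among genes that are mostly above 0.

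Next to Tpi1, Eno2, the neuronal enolase gene 40913 bases before it, gave 71 and 58 counts in WT against 161 and 117 in the G3 *Terc*-/- libraries and rose by 1.22 (SE 0.19, adjusted p = 7.78e-07 from edgeR). Usp5, which starts 861 bases after Tpi1, rose by 0.63 (SE 0.05, adjusted p = 9.11e-14 from edgeR), and the gene Spsb2 overlaps Tpi1. On the sides of Gapdh, Iffo1 rose by 1.19 and Ncapd2 by 0.65 on the log2 scale. Since the strand setting of the counting is not given in the sources used here, reads from overlapping genes cannot be told apart.

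Other genes of the lists on chromosome 6 can be read beside their surroundings in the same way. Slc2a3 (0.77) and Tigar (0.39) lay where the median within 2 Mb was 0.67 and 0.37. Pdk4 (-1.01), Rpia (-0.86), Suclg1 (-0.95) and Kdm3a (-0.59) lay where it was -0.85, -0.92, -0.85 and -0.94. Ldhb (-0.64) and Bhlhe40 (-1.38) lay beside medians of 0.13 and -0.06, and Eno2 (1.22) and Suclg2 (0.22) beside 0.53 and 0.04. Gfpt1 (0.05), Bpgm (-0.04) and Vhl (-0.09), which did not pass, lay beside medians of 0.56, 0.01 and 0.06. The feeder marker Col1a2, at 0.21 and not called, lay beside -0.86. Its own value was -0.17 without G3 *Terc*-/- replicate 1 and -0.10 without WT replicate 2, and it was higher with no filter (0.19) and without WT replicate 1 (0.59) or G3 *Terc*-/- replicate 2 (0.49). How far the position accounts for any of these values was not tested.

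Lncenc1 lies on chromosome 13, where the median log2 fold change of 545 tested genes was 0.02. Within 2 Mb of it 24 other genes were tested, with a median of -0.05, of which 6 were higher and 8 lower by edgeR. Lncenc1 was lower than each of them. Enc1, which ends 181930 bases before Lncenc1, gave 4613 and 5045 counts in WT against 3973 and 3282 in the G3 *Terc*-/- libraries and fell by 0.29 (SE 0.05, adjusted p = 1.41e-05 from edgeR). Arhgef28 on the other side, 400930 bases away, had at most 92 counts in any library and did not pass the test (log2 fold change 0.03, SE 0.20, adjusted p = 0.925 from edgeR).

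Proteins known to bind Lncenc1 or to splice Pkm were tested as a list of 9 genes, of which 1 was higher and 1 lower. Without either G3 *Terc*-/- replicate, and likewise with no filter, 2 were lower. Ptbp1 (-0.10, SE 0.05, adjusted p = 0.0654 from edgeR) and Hnrnpk (0.02, SE 0.05, adjusted p = 0.714 from edgeR) did not pass, but Ptbp1 was lower without G3 *Terc*-/- replicate 1 (-0.11, adjusted p = 0.0235 from edgeR) and with no filter (-0.12, adjusted p = 0.0258 from edgeR). Hnrnpa2b1, on chromosome 6, gave 30032 and 31888 counts in WT against 17869 and 15780 in the G3 *Terc*-/- libraries and fell by 0.75 (SE 0.05, adjusted p = 5.99e-17 from edgeR). The median of the genes within 2 Mb of Hnrnpa2b1 was -0.77. Ptbp3 rose by 0.31 (SE 0.06, adjusted p = 3.33e-05 from edgeR).

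Lncenc1 was also set beside 20 tested long noncoding RNAs known from ESCs, of which 8 were higher and 5 were lower. The 8 came to 4 with DESeq2 and without G3 *Terc*-/- replicate 2, and to 5 without any one of the other libraries and among genes averaging 50 counts or more. The 5 came to 3 without WT replicate 1 and to 9 with no filter. Platr10 gave 1635 and 1755 counts in WT against 407 and 365 in the G3 *Terc*-/- libraries and fell by 2.01 (SE 0.08, adjusted p = 2.10e-24 from edgeR). Platr14 fell by 0.73 (SE 0.06, adjusted p = 5.55e-13 from edgeR) and Platr4 by 0.49. Tug1, an abundant RNA of many cell types, gave 2740 and 2722 counts in WT against 3291 and 3002 in the G3 *Terc*-/- libraries and rose by 0.33 (SE 0.06, adjusted p = 4.45e-06 from edgeR). Tunar rose by 1.48 and Platr8 by 1.52 at low counts. These RNAs moved in both directions, with a median of -0.10.

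Among 12177 genes averaging 50 counts or more, the patterns most like that of Lncenc1 over the 4 libraries were those of Dusp27, Tdrd12 and Hes6, at Euclidean distances of 0.0469, 0.0539 and 0.0626 between log2 CPM centred on each gene's mean. Those most like Hk2 were Ppp1r9a (0.0265), Got1l1 (0.0280) and Gpa33 (0.0427). Lncenc1 and Hk2 were at a distance of 0.103 from each other. These 4 libraries were the only points compared.

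The promoters of the 10 genes were 16 windows of 300 bases in RefSeq on GRCm38. Each ran from 250 bases before a start to 50 after it. They were searched on both strands for ACGTG, a form of the HIF core motif, and for CACGTG, the E-box of MYC and USF. CACGTG contains ACGTG on each strand. Other forms of the HIF core were not searched. ACGTG occurred in 7 of the 16 windows and CACGTG in 1, beside 24.8% and 9.72% of 14698 windows of tested genes and 19.6% and 7.15% of all 32851 windows. Of the 7, 2 are overlapping windows of Aldoa that hold the same match. A match of these letters is a description and not a binding site. The windows of Lncenc1 and Hk2 are printed because these genes had the largest differences, and those of Pgk1 and Ldha because they hold the motif and belong to genes with smaller ones. Capitals mark ACGTG on either strand, and each sequence runs 5′ to 3′ on the strand of its gene. The windows are chr13:97434720-97435019 (+) for Lncenc1, chr6:82774405-82774704 (−) for Hk2, chrX:106186850-106187149 (+) for Pgk1 and chr7:46845554-46845853 (+) for Ldha.
Lncenc1: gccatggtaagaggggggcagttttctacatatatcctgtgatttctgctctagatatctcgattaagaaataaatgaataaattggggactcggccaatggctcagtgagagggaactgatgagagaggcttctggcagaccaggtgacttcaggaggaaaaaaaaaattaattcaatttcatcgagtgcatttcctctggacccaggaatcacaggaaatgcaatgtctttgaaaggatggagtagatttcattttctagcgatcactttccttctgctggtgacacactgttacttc
Hk2: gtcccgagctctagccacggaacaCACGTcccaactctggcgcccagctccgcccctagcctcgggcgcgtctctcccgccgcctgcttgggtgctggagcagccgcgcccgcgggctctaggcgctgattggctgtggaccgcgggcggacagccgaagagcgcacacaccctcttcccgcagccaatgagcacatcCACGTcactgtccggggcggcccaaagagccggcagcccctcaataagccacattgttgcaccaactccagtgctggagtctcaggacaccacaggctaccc
Pgk1: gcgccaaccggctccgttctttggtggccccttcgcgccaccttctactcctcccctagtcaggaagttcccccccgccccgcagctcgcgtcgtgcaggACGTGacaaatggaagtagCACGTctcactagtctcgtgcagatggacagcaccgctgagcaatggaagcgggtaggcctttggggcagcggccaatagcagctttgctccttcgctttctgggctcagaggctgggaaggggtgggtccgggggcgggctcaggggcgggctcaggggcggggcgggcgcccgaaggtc
Ldha: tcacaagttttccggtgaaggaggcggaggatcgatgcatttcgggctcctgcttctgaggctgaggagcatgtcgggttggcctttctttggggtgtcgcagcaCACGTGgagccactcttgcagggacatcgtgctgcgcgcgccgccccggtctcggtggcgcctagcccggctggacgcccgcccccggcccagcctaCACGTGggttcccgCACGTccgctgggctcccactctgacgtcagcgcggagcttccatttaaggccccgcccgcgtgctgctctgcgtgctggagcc

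The window of Lncenc1 held 0 matches, that of Hk2 and that of Pgk1 2 each, and that of Ldha 5 when each CACGTG is counted on both strands. The second window of Ldha, the first windows of Aldoa and Pkm, the windows of Tpi1 and Gpi1 and those of Eno1 held 0. Matches were thus found in promoters of genes with large and with small differences between the lines, and this says only which letters lie in these windows.

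Markers of the cell types in the cultures were read beside these values. All 16 pluripotency markers were detected, with summed levels of 7586 and 7721 CPM in WT and 9383 and 9798 CPM in G3 *Terc*-/- libraries, and Tdgf1 had the highest mean, though Dppa5a was above it in both WT libraries. Of these, 11 were higher and 4 lower by edgeR, among them Tbx3 (1.81), Nanog (1.13) and Tfcp2l1 (0.80) as higher and Dppa5a (-0.79), Lin28a (-0.42) and Utf1 (-0.32) as lower. Nanog lies on chromosome 6 where the median within 2 Mb was 0.68.

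Feeder fibroblast markers (20 genes) were detectable in each library, and 0 of them were at 0 counts throughout. They summed to 483 and 321 CPM in WT and to 524 and 362 CPM in G3 *Terc*-/- libraries, so that replicate 1 had the larger sum in both lines. Acta2 had the highest mean of the 4 libraries, with 108 and 67.1 CPM in WT and 108 and 67.4 CPM in G3 *Terc*-/- libraries, although Tagln was above it in all but G3 *Terc*-/- replicate 1. Of 19 tested 7 were higher and 1 was lower, with a median of 0.37. With the replicate number as a block, more of them were higher. These counts also depended on single libraries. The 7 became 14 without WT replicate 1, 3 without WT replicate 2, 1 without G3 *Terc*-/- replicate 1 and 15 without G3 *Terc*-/- replicate 2, and 2 with DESeq2. The 1 became 0 without WT replicate 1 or G3 *Terc*-/- replicate 2 and with DESeq2, and 2 without either of the other libraries. Col5a1, Col6a1 and Thy1 rose by 0.58, 0.65 and 0.55 on the log2 scale, and each lost its call with DESeq2. Their values were 0.36, 0.39 and 0.36 without WT replicate 2 and 0.33, 0.29 and 0.19 without G3 *Terc*-/- replicate 1, where Col6a1 and Thy1 lost their calls too. Tagln, the lower gene, fell by 0.25. Its value was 0.0189 without WT replicate 1, -0.47 without WT replicate 2, -0.43 without G3 *Terc*-/- replicate 1 and -0.09 without G3 *Terc*-/- replicate 2. The part of these markers in the values of Lncenc1 and Hk2 was not tested.

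Trophectoderm markers (9 genes) summed to 343 and 334 CPM in WT and to 203 and 201 CPM in G3 *Terc*-/- libraries. Tfap2c had the highest mean of the 4 libraries, but Krt8 was above it in WT replicate 1 (117 and 112 CPM). Of 8 tested, 6 were lower, among them Krt18 (-1.81), Krt8 (-1.26) and Krt7 (-3.21), and Eomes (1.63) was higher, while Elf5 had under 10 counts in every library. Primitive endoderm markers (9 genes) summed to 212 and 195 CPM in WT and 201 and 177 CPM in G3 *Terc*-/- libraries. Lama1 had the highest mean of the 4 libraries, and Col4a1 was above it in both WT libraries (93.7 and 82.7 against 83.1 and 79.5 CPM). Of these genes 4 were lower, among them Gata6 (-1.43), Dab2 (-1.05) and Col4a1 (-0.35), and Lama1 (0.30) was higher. The keratin genes thus fell and most pluripotency markers rose where Lncenc1 and Hk2 were lower, and what part they had in those values was not tested either.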

How the data were processed

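RNA-seq libraries were made from poly(A) RNA, 2 for each of 2 ESC lines. Per the labels, the authors deposited raw counts per gene, whole numbers without normalization. The submitters' processing notes name Trim Galore, STAR, featureCounts and the build mm10, and their versions and the strand setting are not given in the sources used here. Of 24116 NCBI gene identifiers, 24061 matched a symbol and position in RefSeq on GRCm38. Fold changes and tests came from edgeR 4.0.16 in R 4.3.3 (filterByExpr, TMM, quasi-likelihood test on genotype alone), with Benjamini-Hochberg adjustment over 14896 genes. The fit was also run on simulated counts, and no value from them is quoted here. Lengths were merged exons of GENCODE annotation.

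The genes and the lists were chosen with earlier results of these data known. Named are the 10 genes, other glycolytic enzymes averaging 500 counts or more, from each list up to 3 genes per direction with the smallest p (averaging 50 counts or more), nearest tested neighbours, and the 3 most similar patterns. Exceptions are Hif1a, Ptbp1, Hnrnpk, Pck1, Pck2, G6pc, G6pc3, Fbp1, Fbp2, Gcfc2, Spsb2, Pdha1, Tktl1, Gfpt1, Bpgm, Vhl and Col1a2, picked after their values were seen. Tdgf1, Acta2 and Tfap2c are named as the markers with the highest mean of their lists, Elf5 for its low counts and Ldhc as part of a sum. Alternatives were DESeq2 1.42.0, its size factors in edgeR, scaling without chromosome 6, 2 other filters, the replicate number as a block, and each library left out in turn. The deposited counts of single transposable elements were not used here.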

Additional observations from a re-analysis of the deposited data

How the results depend on the processing

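Of the 10 genes, 0 changed direction under any alternative run. Leaving out each library in turn gave Lncenc1 log2 fold changes from -1.64 to -1.49 and Hk2 from -1.52 to -1.45; the library left alone was assumed to vary like the other group. These fits gave 2385 to 3055 higher and 2348 to 3099 lower genes in all, and 12 to 21 higher and 37 to 53 lower genes of the pathway lists. DESeq2 called 2076 higher genes in all and 12 in the lists, and the cause was not tested. The cutoffs of the study were a fold change over 2 and an unadjusted P under 0.05. Applied to the edgeR values, they left 704 higher and 466 lower genes in all and 5 and 5 in the lists. Deviations of same-numbered replicates from their group means correlated at 0.0617, so they were not taken as pairs. A paired fit with the replicate block gave 3551 higher and 3583 lower genes in all, and 23 and 56 in the lists. With it Ptbp1 and G6pc3 were also lower and Col1a2 higher, and lower genes came to 1 in gluconeogenesis, 2 among the binding proteins and 9 among the long noncoding RNAs, higher ones to 2 in the TCA cycle and 10 among feeder markers. Of 790 values of 79 genes named by the rule, 753 kept their direction and their side of the threshold, 34 lost the call and 3 changed sign. With each library left out, Tagln ran from -0.470 to 0.0189 (without WT replicate 1) and Arhgef28, not called, from -0.117 to 0.149. The cause was not tested. Lists of few genes rest on few values, and genes under about 50 counts, such as Fbp1 and Fbp2, on few reads. Of these 2 genes, Fbp1 lost its call with DESeq2 and Fbp2 kept it. The part of depth in this was not tested. With 2 libraries of 1 line per genotype, genotype and line cannot be told apart.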
